A study of Homo sapiens with 6 samples.

Results

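The heat shock proteins and their J-domain partners are the chaperones that fold, refold and hand over other proteins. They were read here from Affymetrix whole-transcript arrays of A549, a long-established line of epithelial cells from a human lung adenocarcinoma. A member was a probe set that the platform annotation assigned to a single gene symbol of the HSPA, HSPB, HSP90, HSPD1, HSPE1, HSPH1, DNAJA, DNAJB or DNAJC series, with pseudogenes left out. The rule gave 69 of the 53617 probe sets, which stood for 63 of the 22395 genes tested, 61 of them protein-coding. The 63 genes comprised 3 HSP110 proteins, 9 HSP70 proteins, 2 HSP90 proteins, 6 small heat shock proteins, 4 DNAJA, 11 DNAJB and 26 DNAJC proteins, and 2 antisense RNAs (DNAJB8-AS1 and DNAJC27-AS1) whose symbols match the rule.

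The study had 3 groups of 2 arrays each: cells given 2 µM Comp.4, cells given 2 µM Comp.2, and cells given vehicle alone. Cells were cultured at 37 °C, treatment began 24 h after plating, and RNA was taken at day 2 in every group. The series title describes the compounds, known here by code names, as sequence-specific inhibitors of histone acetyltransferases, and the labels do not spell the name of the compound class in 1 way throughout. All groups shared 1 cell line and 1 time, each compound was given at 1 dose, and nothing in the labels says that the 2 arrays of a group came from separate cultures, so the p-values below may measure technical spread alone.

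HSP70 proteins clamp onto exposed hydrophobic stretches of a client protein and hold it while ATP is hydrolysed. J-domain proteins (the DNAJ families) bring clients to HSP70 and speed up that hydrolysis, and HSP110 proteins release the nucleotide so that the client can leave. HSP90 takes over clients such as kinases and hormone receptors late in folding, and small heat shock proteins bind unfolded proteins without ATP. Many of these genes are switched on by the transcription factor HSF1, which binds repeats of the unit GAA in alternating orientation (heat shock elements). The chaperones of the endoplasmic reticulum (ER) answer instead to the unfolded protein response through ER stress elements. Tumour lines, lung adenocarcinoma among them, commonly keep several of these chaperones at high levels without any heat shock.

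Promoter windows from RefSeq (GRCh38.p14), running from 250 bases before to 50 after an annotated start, were found for 57 of the 63 members, in 75 windows. Of the 57 genes, 4 (7.02%) held a heat shock element of 3 units on either strand (GAANNTTC followed after 2 bases by another GAA, or the reverse complement): HSPA6, HSP90AA1, HSP90AB1 and DNAJA1. Among all 27305 genes with a window, 0.608% held it, and among all 35116 windows 0.490% did. The shorter 2-unit forms, GAANNTTC and TTCNNGAA, each read the same on both strands and both lie inside the 3-unit form. At least one of them was found for 17 of the 57 members (29.8%), against 16.2% of all genes. The ER stress element, CCAAT and CCACG with 9 bases between them, was searched on both strands and was present in 1 member, HSPA5 (1.75% of members, 0.0916% of all genes). A match is a description of the letters in these windows, and the arrays did not measure binding of any factor or which start was in use.

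The windows below are those of the 2 members that passed a test (HSPA4L and HSPA2), of the member with the next largest difference (DNAJB4), and of 3 members with a full element but no call (HSP90AB1, DNAJA1 and HSPA5). Each is written 5′ to 3′ on the gene's strand, with matches to the searched elements in capitals. HSPA4L has 3 annotated windows, and the one shown, at chr4:127782072-127782371 on the plus strand, holds a 2-unit match beginning 170 bases before the start. HSPA2, at chr14:64540491-64540790 on the plus strand, holds none of the searched forms. DNAJB4, in the second of its 2 windows at chr1:78004689-78004988 on the plus strand, holds a 2-unit match 98 bases before the start. HSP90AB1, in the third of its 3 windows at chr6:44247693-44247992 on the plus strand, holds a pair of 3-unit matches, 165 and 112 bases before the start. The windows of HSPA4L, DNAJB4 and HSP90AB1 that are not shown hold none of the searched forms. DNAJA1, at chr9:33025023-33025322 on the plus strand, holds a 3-unit match that begins 3 bases after the start base and a separate 2-unit match 198 bases before it. HSPA5, at chr9:125241294-125241593 on the minus strand, holds the ER stress element 66 bases before the start.
HSPA4L: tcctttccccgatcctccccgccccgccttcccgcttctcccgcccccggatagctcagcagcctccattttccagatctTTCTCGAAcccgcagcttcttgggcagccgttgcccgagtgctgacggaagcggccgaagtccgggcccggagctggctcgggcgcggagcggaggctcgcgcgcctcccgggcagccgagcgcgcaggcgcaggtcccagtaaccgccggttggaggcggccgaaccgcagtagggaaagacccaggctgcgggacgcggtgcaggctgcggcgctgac
HSPA2: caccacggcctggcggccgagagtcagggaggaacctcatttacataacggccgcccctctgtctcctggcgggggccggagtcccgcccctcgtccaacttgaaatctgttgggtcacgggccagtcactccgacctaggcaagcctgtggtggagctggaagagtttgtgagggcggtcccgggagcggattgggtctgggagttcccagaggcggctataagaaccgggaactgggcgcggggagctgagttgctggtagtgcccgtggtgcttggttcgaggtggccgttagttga
DNAJB4: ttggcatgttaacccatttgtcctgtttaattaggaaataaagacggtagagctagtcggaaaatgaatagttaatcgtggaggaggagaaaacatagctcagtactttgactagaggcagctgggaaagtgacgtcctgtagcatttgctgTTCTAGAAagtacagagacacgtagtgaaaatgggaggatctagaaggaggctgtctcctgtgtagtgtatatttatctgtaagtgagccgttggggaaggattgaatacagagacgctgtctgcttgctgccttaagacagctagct
HSP90AB1: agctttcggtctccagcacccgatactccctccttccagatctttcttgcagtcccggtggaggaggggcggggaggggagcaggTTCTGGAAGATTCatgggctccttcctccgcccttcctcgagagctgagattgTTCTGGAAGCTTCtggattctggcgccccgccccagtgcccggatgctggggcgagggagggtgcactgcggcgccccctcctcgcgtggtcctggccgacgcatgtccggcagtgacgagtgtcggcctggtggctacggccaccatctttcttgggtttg
DNAJA1: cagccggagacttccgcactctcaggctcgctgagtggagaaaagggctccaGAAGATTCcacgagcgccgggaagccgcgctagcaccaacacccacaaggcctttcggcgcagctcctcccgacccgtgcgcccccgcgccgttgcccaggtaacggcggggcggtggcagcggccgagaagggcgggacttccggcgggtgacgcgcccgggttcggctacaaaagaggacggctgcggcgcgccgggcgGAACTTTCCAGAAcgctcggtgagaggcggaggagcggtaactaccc
HSPA5: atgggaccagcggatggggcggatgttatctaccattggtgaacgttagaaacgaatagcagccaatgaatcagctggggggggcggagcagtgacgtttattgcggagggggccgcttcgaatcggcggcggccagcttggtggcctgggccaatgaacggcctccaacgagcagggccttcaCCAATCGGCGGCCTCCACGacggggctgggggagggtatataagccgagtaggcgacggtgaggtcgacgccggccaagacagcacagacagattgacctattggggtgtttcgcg

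All values are deposited log2 levels on the RMA scale, where 1 unit is a doubling, and differences are log2 differences of group means. A probe set's level was set against its own level in another group and not against another gene's, since probe sets bind with different strength. On the 6 arrays the median of all probe sets lay between 4.55 and 4.56. The standard deviation of the gene-by-gene difference between 2 arrays was 0.158 to 0.183 within groups and 0.196 to 0.223 between groups. The epithelial markers KRT7, KRT8, KRT18, KRT19, EPCAM and CDH1 all lay above the median gene (5.35), between 6.16 and 10.35. Of the other markers measured, 1 of 4 leukocyte genes (CD14), 1 of 4 fibroblast genes (COL1A1) and 0 of 4 endothelial genes lay above it, while PTPRC, CD3E, DCN and LUM lay between 2.64 and 3.67 on every array.

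Of the 63 members, 44 lay above the median gene. These were all 3 HSP110 genes, both HSP90 genes, 7 of 9 HSP70 genes, 3 of 4 DNAJA, 8 of 11 DNAJB and 20 of 26 DNAJC genes, but only HSPB1 among the 6 small heat shock proteins and neither antisense RNA. The 2 arrays of a group differed over the members by a median of 0.0807 in Comp.4, 0.108 in Comp.2 and 0.0790 in vehicle. The dim members were noisier: their median gap was 0.130 in Comp.4, 0.177 in Comp.2 and 0.0988 in vehicle, and the widest gap of all, 0.654, was that of HSPB9 between the Comp.4 arrays.

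Among the members, HSPA4L showed the largest difference. It encodes an HSP110 protein that is abundant in testis and serves as a nucleotide exchange factor for HSP70. HSPA4L, on chromosome 4, read 8.07 and 8.07 on the Comp.4 arrays, 8.77 and 8.64 on the Comp.2 arrays, and 7.88 and 7.92 on the vehicle arrays. All 3 groups stood apart without overlap, in the order Comp.2, Comp.4, vehicle. In bulk RNA, a change in the share of cells that make a transcript and a change per cell cannot be told apart. In Comp.2 it rose over vehicle by 0.80 (SE 0.08, 95% interval 0.62 to 0.99), 1.75-fold, with an adjusted p of 0.0234 in limma. Against Comp.2 it was lower in Comp.4 by a log2 difference of -0.63 (SE 0.08, interval -0.82 to -0.45), 1.55-fold, with an adjusted p of 0.0385. Comp.4 exceeded vehicle by 0.17 (interval -0.01 to 0.35), which did not pass (adjusted p = 0.334). Leaving out any 1 of the 6 arrays ended both calls of HSPA4L, with the Comp.2 difference over vehicle between 0.74 and 0.87 and its adjusted p between 0.0569 and 0.229. Those smaller fits called few genes of any kind, at most 9 higher and 5 lower of all 22395. When only these 2 groups were fitted, the call over vehicle was lost (adjusted p = 0.0569). For this comparison that fit equals those without a Comp.4 array, since a lone array adds nothing to the estimated spread.

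HSPA2 was the only other member to pass a test. It encodes an HSP70 protein best known for its part in sperm development and is also found in tumour cells. The gene, on chromosome 14, read 9.20 and 9.16 with Comp.4, 9.69 and 9.75 with Comp.2, and 9.38 and 9.38 with vehicle. Vehicle lay between the compounds, and no group overlapped another. The difference between Comp.4 and Comp.2 was -0.54 (SE 0.07, 95% interval -0.70 to -0.37), a level 1.45-fold lower in Comp.4 with an adjusted p of 0.0453. Neither side passed against vehicle on its own: Comp.2 stood 0.34 above it (interval 0.17 to 0.51, adjusted p = 0.178) and Comp.4 differed from it by -0.20 (interval -0.36 to -0.03, adjusted p = 0.241). Without any 1 of the 6 arrays, the difference between the compounds stayed between -0.56 and -0.51, and its adjusted p was 0.136 to 0.221. With the variance prior fitted as a trend on the level, both differences from vehicle passed (adjusted p = 0.00378 for Comp.2 and 0.0310 for Comp.4).

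**Figure D1:**
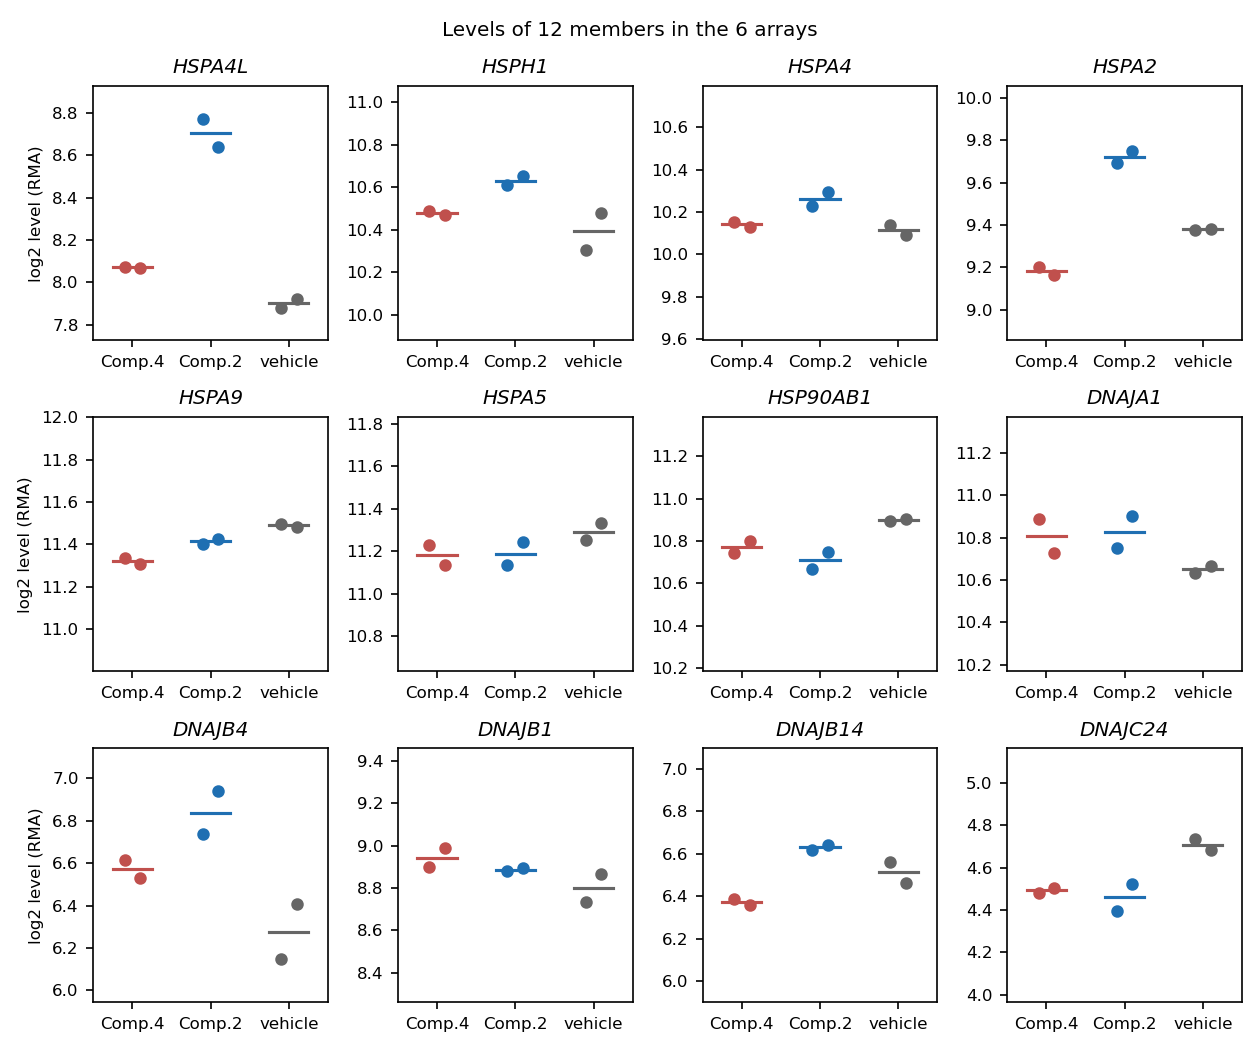
Log2 RMA level (vertical axis, spanning the same number of log2 units in each panel) of 12 members on each of the 6 arrays, with Comp.4, Comp.2 and vehicle placed left to right, 1 point per array and a line at each group mean. HSPA4L, at 8.77 and 8.64, and HSPA2, at 9.69 and 9.75, stood highest in Comp.2, while DNAJC24 and HSP90AB1 stood highest in vehicle.

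Against vehicle, then, Comp.2 moved 1 of the 63 members past the threshold, HSPA4L upward, and 0 downward. Over all 22395 genes, 0.134% were called higher and 0.0625% lower. At an unadjusted limma p under 0.05, 4 members were higher and 3 lower, where 6.23% and 4.94% of all genes were. The median difference of the members was 0.05, and that of all genes 0.00. Arrays did not overlap for 20 members higher in Comp.2 and 12 lower, set beside 22.7% and 21% of all genes (43.7% in either direction). Of the members, 60 lay within 0.25 of 0, but this was not counted for all genes, so it does not set the members apart.

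In Comp.4 against vehicle, limma called 0 of the 63 members in either direction, where 0.0536% of all genes were higher and 0.0938% lower. At an unadjusted p under 0.05 there were 5 members higher and 5 lower, beside 8.64% and 7.88% of all genes. The member median was 0.03 and the median of all genes 0.02. In 22 members both Comp.4 arrays exceeded both vehicle arrays, and in 13 both lay below, against 27.2% and 22.2% of all genes (49.4% in either direction).

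The direct comparison of the compounds, both at 2 µM and day 2, gave 0 members higher in Comp.4 and 2 lower, HSPA4L and HSPA2. The background was 0.192% of all genes higher and 0.179% lower. At an unadjusted p under 0.05, 2 members were higher and 5 lower (7.52% and 7.45% of all genes), and arrays did not overlap for 13 higher and 14 lower (23.7% and 21.6% of all genes, 45.3% in either direction). Both comparisons with vehicle use the same 2 vehicle arrays, so their values for a gene are not independent.

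**Figure D2:**
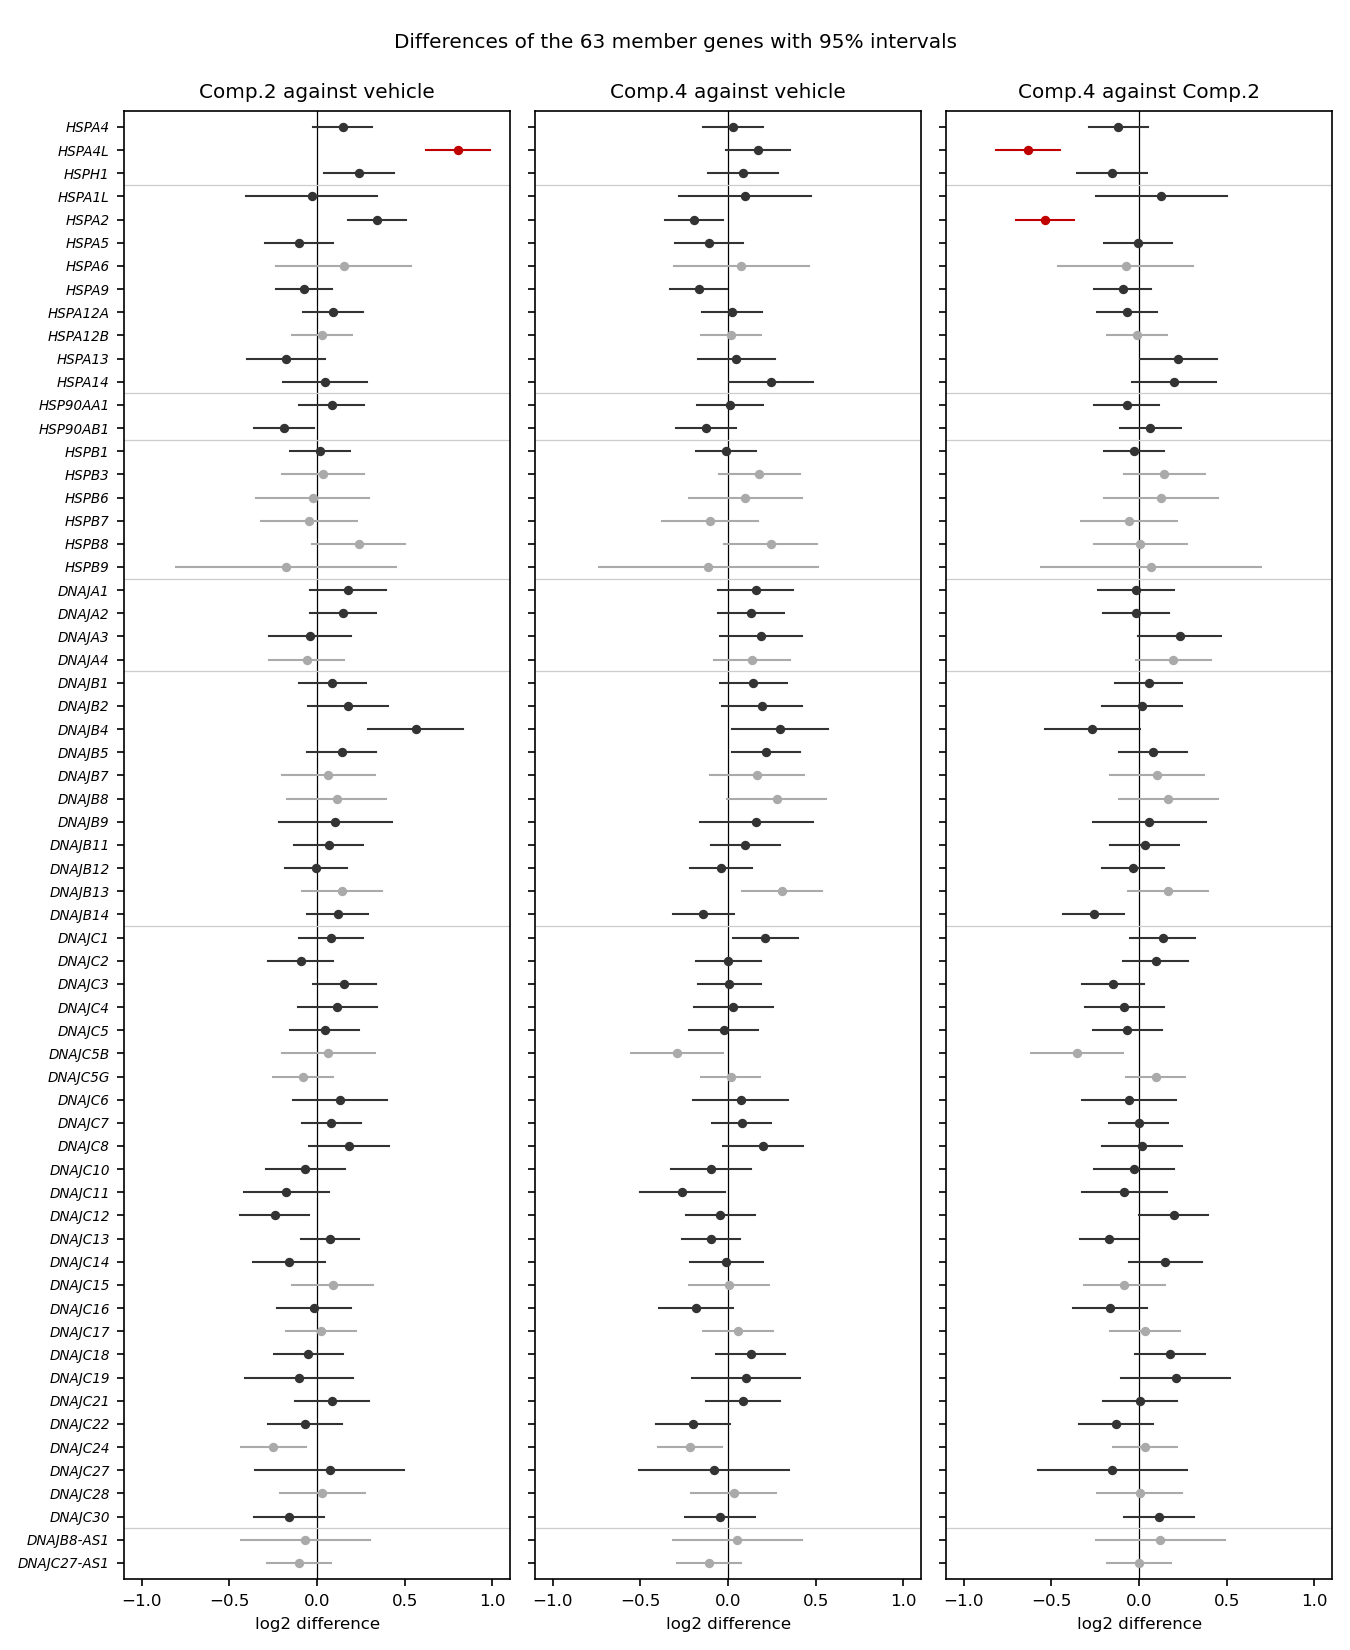
Log2 difference (horizontal axis) of each of the 63 members with its 95% interval in the 3 comparisons, with genes down the page by class, calls in red, other members above the median gene in black and those below it in grey. HSPA4L is red at 0.80 in Comp.2 against vehicle and at -0.63 in Comp.4 against Comp.2, where HSPA2 is red at -0.54, and the intervals of most other members cross 0.

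The group means of all 3 HSP110 genes were above vehicle in both treated groups, beside 51.3% of all genes in Comp.2 and 54.9% in Comp.4. HSPA4L in Comp.2 was the single call against vehicle, where 0.134% of all genes were called higher. That this class of 3 genes differs from other genes was not tested. HSPH1, the heat-inducible HSP110 protein, read 10.49 and 10.47 in Comp.4, 10.61 and 10.65 in Comp.2, and 10.30 and 10.48 in vehicle. Its Comp.2 arrays lay above the vehicle arrays, which themselves lay 0.18 apart, by 0.24 (interval 0.04 to 0.44, adjusted p = 0.376). HSPA4, the constitutive member of the class, had 10.15 and 10.13 in Comp.4, 10.23 and 10.30 in Comp.2, and 10.14 and 10.09 in vehicle. The Comp.2 values of HSPA4 were the highest, by 0.15 over vehicle (interval -0.02 to 0.32, adjusted p = 0.498). Between Comp.4 and Comp.2, the differences that did not pass were -0.15 for HSPH1 (adjusted p = 0.444) and -0.12 for HSPA4 (adjusted p = 0.482). The class medians were 0.24 for Comp.2 against vehicle, 0.09 for Comp.4 against vehicle and -0.15 for Comp.4 against Comp.2, where all genes had 0.00, 0.02 and 0.01.

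No HSP70 gene other than HSPA2 passed a test. With 0.0536% to 0.192% of all genes called in each direction of a comparison, few calls among 9 genes are little evidence. At an unadjusted limma p under 0.05, 1 was higher and 0 lower in Comp.2 against vehicle, beside 6.23% and 4.94% of all genes. In Comp.4 against vehicle 1 was higher and 2 lower (8.64% and 7.88%), and between the compounds 1 and 1 (7.52% and 7.45%). HSPA5 (BiP), the HSP70 of the ER lumen and a standard readout of ER stress, read 11.23 and 11.13 in Comp.4, 11.13 and 11.24 in Comp.2, and 11.25 and 11.33 in vehicle. Both treated groups lay below both vehicle arrays, with differences of -0.11 in Comp.4 (interval -0.30 to 0.08, adjusted p = 0.543) and -0.10 in Comp.2 (interval -0.30 to 0.09, adjusted p = 0.679). HSPA9 (mortalin), the mitochondrial HSP70 that pulls proteins through the import channel, had 11.34 and 11.31 in Comp.4, 11.40 and 11.43 in Comp.2, and 11.50 and 11.48 in vehicle. Its 3 groups did not overlap, and the Comp.4 difference from vehicle was -0.17 (interval -0.33 to -0.01, adjusted p = 0.286), which passed only with the variance trend (adjusted p = 0.0129). A second, dim HSPA9 probe set, between 3.64 and 4.57, gave -0.56 for Comp.4 and -0.55 for Comp.2 against vehicle.

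HSPA14, which works at the ribosome with the J-protein DNAJC2, read 7.62 and 7.58 in Comp.4, 7.52 and 7.28 in Comp.2, and 7.30 and 7.42 in vehicle. Comp.4 lay above vehicle by 0.24 (interval 0.01 to 0.48, adjusted p = 0.292), and the Comp.2 arrays lay on either side of the vehicle arrays. DNAJC2 itself differed from vehicle by 0.00 in Comp.4 and -0.09 in Comp.2. HSPA13, a microsomal HSP70, had its lowest pair in Comp.2, at 7.85 and 8.04, against 8.20 and 8.14 in Comp.4 and 8.06 and 8.19 in vehicle. Comp.4 was 0.22 above Comp.2 there (interval 0.00 to 0.45, adjusted p = 0.328). HSPA6, a strictly heat-inducible HSP70 with a 3-unit element in its promoter window, stayed below the median gene on every array, between 4.18 and 4.68, with groups that overlapped. HSPA1L was covered by 5 probe sets, 3 of them with identical values, and since it closely resembles other HSP70 genes its readings of 6.17 to 6.62 on the brightest set may not be its own.

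Neither HSP90 gene passed a test, where 0.0536% to 0.192% of all genes did in each direction of a comparison. At an unadjusted limma p under 0.05 only HSP90AB1 was lower, in Comp.2 against vehicle, where 4.94% of all genes were. HSP90AB1, the constitutive cytosolic HSP90, read 10.74 and 10.80 in Comp.4, 10.67 and 10.75 in Comp.2, and 10.90 and 10.90 in vehicle. Every treated array was below both vehicle arrays. The difference was -0.19 in Comp.2 (interval -0.36 to -0.02, adjusted p = 0.409, and 0.0433 with the variance trend) and -0.13 in Comp.4 (adjusted p = 0.441). HSP90AA1, the inducible cytosolic HSP90, had 6.36 and 6.43 in Comp.4, 6.42 and 6.51 in Comp.2, and 6.34 and 6.43 in vehicle, and the groups overlapped. Cytosolic HSP90 and DNAJA1 have many processed pseudogenes, so probes of these genes can bind more than 1 transcript.

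Of the small heat shock proteins, limma called 0 of 6 in any comparison, and 0 reached an unadjusted p under 0.05. Of all genes, 0.0536% to 0.192% were called in each direction of a comparison, and 4.94% to 8.64% reached the unadjusted limit. With shares that small, 0 of 6 is little evidence on the class. HSPB1 (HSP27), which holds unfolded proteins and protects actin filaments, was the brightest. It read 11.54 and 11.59 in Comp.4, 11.55 and 11.62 in Comp.2, and 11.55 and 11.59 in vehicle. The differences from vehicle were -0.01 in Comp.4 (interval -0.18 to 0.16) and 0.01 in Comp.2 (interval -0.16 to 0.19), so a change of over 0.19 either way lies outside both intervals. HSPB8, which works with BAG3 to send damaged proteins to autophagy, had 4.91 and 4.67 in Comp.4, 4.67 and 4.89 in Comp.2, and 4.54 and 4.55 in vehicle. Both compounds exceeded vehicle by 0.24 on this dim probe set (adjusted p = 0.337 for Comp.4 and 0.489 for Comp.2). HSPB3, HSPB6, HSPB7 and HSPB9 were dim, between 3.40 and 4.39, and passed in no comparison.

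Many DNAJA and DNAJB proteins are J-domain partners of HSP70 in general folding, while DNAJA3 is mitochondrial and DNAJB14 sits in the ER membrane. In any comparison, limma called 0 of the 4 DNAJA and 0 of the 11 DNAJB genes. In each direction of a comparison 0.0536% to 0.192% of all genes were called, so these counts of 0 are little evidence on the classes. Group means in Comp.4 lay above vehicle for 4 of 4 DNAJA and 9 of 11 DNAJB genes, beside 54.9% of all genes. For Comp.2 this held for 2 of 4 DNAJA and 10 of 11 DNAJB genes, beside 51.3%. At an unadjusted p under 0.05, 3 of 11 DNAJB genes were higher in Comp.4 (DNAJB4, DNAJB5 and DNAJB13), beside 8.64% of all genes, and 1 in Comp.2 (DNAJB4), beside 6.23%, and 0 DNAJA genes were. In Comp.4, both arrays exceeded both vehicle arrays for 4 of 4 DNAJA and 9 of 11 DNAJB genes, beside 27.2% of all genes. The medians were 0.15 for DNAJA and 0.16 for DNAJB against 0.02 for all genes. In Comp.2 the same was seen for 2 of 4 DNAJA and 7 of 11 DNAJB genes, beside 22.7% of all genes, with medians of 0.05 and 0.11 against 0.00. These counts describe the classes, and that the classes differ from other genes was not tested.

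DNAJB4 (HLJ1), a cytosolic J-protein described as a tumour suppressor in lung adenocarcinoma, had the largest difference after HSPA4L. Its levels were 6.61 and 6.53 in Comp.4, 6.74 and 6.94 in Comp.2, and 6.15 and 6.41 in vehicle. The 3 groups did not overlap, in the order Comp.2, Comp.4, vehicle, though the vehicle arrays lay 0.26 apart, the widest gap in vehicle of any member above the median gene. Comp.2 exceeded vehicle by 0.56 (interval 0.29 to 0.83, adjusted p = 0.178) and Comp.4 by 0.29 (interval 0.02 to 0.57, adjusted p = 0.274). The Comp.2 difference passed with the variance trend (adjusted p = 0.0276) and among genes above the median alone (adjusted p = 0.0476).

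DNAJB1 (HSP40), the main stress-inducible partner of HSP70, read 8.90 and 8.99 in Comp.4, 8.88 and 8.89 in Comp.2, and 8.73 and 8.87 in vehicle. It was the single member ordered Comp.4, Comp.2, vehicle without overlap, by small steps: 0.14 for Comp.4 (interval -0.05 to 0.33, adjusted p = 0.430) and 0.09 for Comp.2 over vehicle (adjusted p = 0.731). DNAJA1, a farnesylated J-protein of the cytosol, had 10.89 and 10.73 in Comp.4, 10.75 and 10.90 in Comp.2, and 10.63 and 10.67 in vehicle. The 4 treated arrays of DNAJA1 lay above both vehicle arrays, by 0.16 in Comp.4 (adjusted p = 0.445) and 0.17 in Comp.2 (adjusted p = 0.526). DNAJA2, its close relative, differed from vehicle by 0.13 in Comp.4 and missed the threshold. DNAJA3, the mitochondrial form, read 8.66 and 8.43 in Comp.4, 8.26 and 8.38 in Comp.2, and 8.36 and 8.36 in vehicle. Its difference from vehicle of 0.19 in Comp.4 (adjusted p = 0.397) rested largely on 1 Comp.4 array, and without 1 array it ran from 0.07 to 0.31.

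DNAJB5 exceeded vehicle by 0.22 in Comp.4 (interval 0.02 to 0.41, adjusted p = 0.263), at 6.26 and 6.15 in Comp.4 against 5.98 and 6.00 in vehicle. DNAJB2, a neuron-rich J-protein that binds ubiquitin, stood 0.19 above vehicle in Comp.4 and 0.17 in Comp.2. DNAJB13, a dim gene known from the sperm tail, was 0.31 above vehicle in Comp.4 (interval 0.08 to 0.53, adjusted p = 0.200), at 3.82 and 3.65 in Comp.4 against 3.43 and 3.43 in vehicle. DNAJB14, a J-protein of the ER membrane, was the 1 DNAJB gene whose Comp.4 arrays both lay below vehicle. It read 6.39 and 6.36 in Comp.4, 6.62 and 6.64 in Comp.2, and 6.56 and 6.46 in vehicle, with no overlap between groups and a difference of -0.26 between Comp.4 and Comp.2 (interval -0.43 to -0.09, adjusted p = 0.191).

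**Figure D3:**
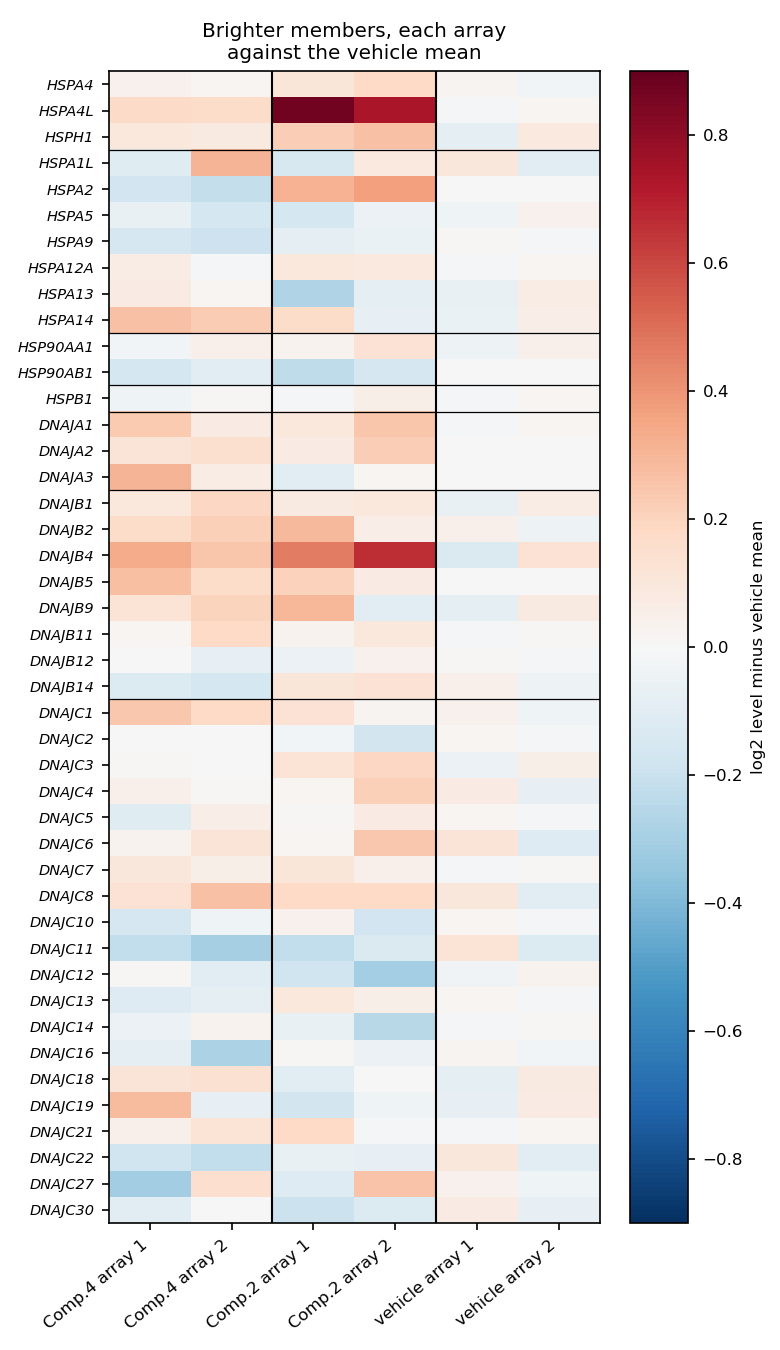
Log2 level of the 44 members above the median gene on each array minus that gene's vehicle mean (colour scale), with genes grouped by class down the page and the Comp.4, Comp.2 and vehicle arrays left to right. HSPA4L and DNAJB4 carry the deepest red in both Comp.2 columns, followed by HSPA2, which is blue in both Comp.4 columns.

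The DNAJC proteins share the J domain alone and serve many separate tasks, and limma called 0 of the 26 in any comparison. With 0.0536% to 0.192% of all genes called in each direction, 0 of 26 is little evidence on the class. At an unadjusted p under 0.05, 1 was higher and 3 lower in Comp.4 against vehicle (8.64% and 7.88% of all genes), 0 higher and 2 lower in Comp.2 against vehicle (6.23% and 4.94%), and 1 higher and 2 lower in Comp.4 against Comp.2 (7.52% and 7.45%). Arrays did not overlap for 5 genes higher and 7 lower of 26 in each comparison with vehicle, beside 27.2% and 22.2% of all genes in Comp.4 and 22.7% and 21% in Comp.2, and the class medians were 0.00 in Comp.4 and 0.02 in Comp.2. DNAJC24, which supplies the diphthamide modification of elongation factor 2, had 4.48 and 4.50 in Comp.4, 4.39 and 4.52 in Comp.2, and 4.73 and 4.68 in vehicle. All 4 treated arrays lay below both vehicle arrays, with differences of -0.22 in Comp.4 (adjusted p = 0.242) and -0.25 in Comp.2 (adjusted p = 0.339). DNAJC12, a co-chaperone of the aromatic amino acid hydroxylases, was lowest in Comp.2, at 6.28 and 6.15, against 6.47 and 6.35 in Comp.4 and 6.43 and 6.48 in vehicle. That gave -0.24 for Comp.2 (interval -0.44 to -0.05, adjusted p = 0.371) and -0.04 for Comp.4 against vehicle.

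DNAJC11, which takes part in shaping the inner mitochondrial membrane, read 8.12 and 8.04 in Comp.4, 8.12 and 8.21 in Comp.2, and 8.47 and 8.21 in vehicle. The difference of -0.26 in Comp.4 (interval -0.50 to -0.02, adjusted p = 0.274) was as wide as the gap between the vehicle arrays. DNAJC1, an ER-membrane J-protein, stood 0.21 above vehicle in Comp.4 (interval 0.03 to 0.40, adjusted p = 0.251). DNAJC8, a splicing-associated J-protein, stood 0.20 above vehicle in Comp.4 and 0.18 in Comp.2, with adjusted p of 0.362 and 0.536. DNAJC13, an endosomal J-protein, was ordered Comp.2, vehicle, Comp.4 without overlap, and its difference between Comp.4 and Comp.2 was -0.17 (interval -0.34 to -0.01, adjusted p = 0.318). DNAJC5B, a dim relative of the synaptic cysteine string protein, had the same order and a difference of -0.36 (interval -0.62 to -0.09, adjusted p = 0.228).

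None of the ER J-proteins passed a test, where 0.0536% to 0.192% of all genes did in each direction of a comparison. DNAJC3 (P58IPK), which restrains the stress kinase PERK, had 8.37 and 8.36 in Comp.4, 8.49 and 8.55 in Comp.2, and 8.31 and 8.42 in vehicle, 0.01 above vehicle in Comp.4 and 0.15 in Comp.2 (adjusted p = 0.502). DNAJB9, another unfolded protein response target, read 6.13 and 6.21 in Comp.4, 6.31 and 5.92 in Comp.2, and 5.93 and 6.09 in vehicle. Comp.4 lay above vehicle by 0.16 (adjusted p = 0.601), while the Comp.2 arrays spanned both other groups. DNAJC10, a disulphide reductase of the ER, differed by -0.10 in Comp.4 and -0.07 in Comp.2. The 2 antisense RNAs lay between 3.82 and 4.97 and passed in no comparison.

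Over all classes, 8 of the 63 members (12.7%) had 3 groups that did not overlap, beside 15.1% of all genes. These were HSPA4L and DNAJB4 (Comp.2, then Comp.4, then vehicle), HSPA2, DNAJB14, DNAJC13 and DNAJC5B (Comp.2, then vehicle, then Comp.4), DNAJB1 (Comp.4, Comp.2, vehicle) and HSPA9 (vehicle, Comp.2, Comp.4).

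Lists of neighbouring chaperone genes were counted in the same fit. In each direction of a comparison, limma called 0.0536% to 0.192% of all genes. With shares that small, 0 calls on a list of this size are little evidence on that list. Of 20 genes listed as targets of HSF1, 14 were measured, 9 of them members. HSPA1A, HSPA1B, HSPA8, HSPD1, HSPE1 and AHSA1 were not among the genes tested, so the counts below leave these targets out. In Comp.2 against vehicle 1 was called higher (HSPA4L) and 0 lower, beside 0.134% and 0.0625% of all genes. At an unadjusted limma p under 0.05, 3 were higher and 1 lower, beside 6.23% and 4.94%. Of the 14, 11 lay above 0 (51.3% of all genes), and the median was 0.12 against 0.00 for all genes. In Comp.4 against vehicle 0 were called, where 0.0536% of all genes were higher and 0.0938% lower. At an unadjusted limma p under 0.05, 1 was higher and 0 lower, beside 8.64% and 7.88% of all genes. Of the 14, 9 lay above 0 (54.9% of all genes) and the median was 0.01 against 0.02. Between Comp.4 and Comp.2, 0 were called higher and 1 lower (HSPA4L), beside 0.192% and 0.179% of all genes. At an unadjusted limma p under 0.05, 0 were higher and 2 lower, beside 7.52% and 7.45%. Of the 14, 3 lay above 0 (52.3% of all genes) and the median was -0.07 against 0.01. Arrays did not overlap for 8 of the 14 higher and 2 lower in Comp.2 against vehicle (22.7% and 21% of all genes). The counts were 4 and 3 in Comp.4 against vehicle (27.2% and 22.2%), and 1 and 6 between the compounds (23.7% and 21.6%). That this list differs from other genes was not tested. BAG3, a heat-inducible co-chaperone on this list, read 7.91 and 7.90 in Comp.4, 8.04 and 8.29 in Comp.2, and 8.02 and 7.98 in vehicle, a difference of -0.26 between Comp.4 and Comp.2 (interval -0.49 to -0.03, adjusted p = 0.278). The HSF1 transcript itself differed from vehicle by -0.06 in Comp.4 and 0.04 in Comp.2.

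Of the heat shock factors and HSF1-binding proteins, HSF1, HSF4, HSBP1 and HSBP1L1 were measured, and limma called 0 of the 4. At an unadjusted p under 0.05, 2 were higher in Comp.4 against vehicle, 1 in Comp.2 against vehicle and 1 in Comp.4 against Comp.2, where 8.64%, 6.23% and 7.52% of all genes were. HSBP1L1, a paralogue of the HSF1-binding protein HSBP1, read 8.03 and 7.96 in Comp.4, 8.10 and 8.12 in Comp.2, and 7.73 and 7.74 in vehicle. All 4 treated arrays of HSBP1L1 were above vehicle, by 0.26 in Comp.4 (interval 0.09 to 0.43, adjusted p = 0.160) and 0.37 in Comp.2 (interval 0.20 to 0.54, adjusted p = 0.151). HSBP1 was 0.21 above vehicle in Comp.4 (adjusted p = 0.220) and 0.03 in Comp.2.

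Among 26 co-chaperones measured of 30 listed, limma called 0 in any comparison. At an unadjusted p under 0.05 there were 2 higher and 2 lower in Comp.4 against vehicle (8.64% and 7.88% of all genes), 1 and 1 in Comp.2 against vehicle (6.23% and 4.94%), and 2 and 2 between the compounds (7.52% and 7.45%). The list had medians of 0.00 in Comp.2 against vehicle, -0.02 in Comp.4 against vehicle and 0.00 between the compounds. The largest difference was that of AHSA2P, a relative of the HSP90 activator AHSA1 that is annotated as a pseudogene. It read 6.20 and 6.06 in Comp.4, 7.01 and 6.78 in Comp.2, and 6.94 and 6.79 in vehicle. Comp.4 stood below both other groups, at -0.73 against vehicle (interval -0.99 to -0.47, adjusted p = 0.0749) and -0.76 against Comp.2 (interval -1.02 to -0.51, adjusted p = 0.0567). GRPEL2, a nucleotide exchange factor for mitochondrial HSP70, differed from vehicle by -0.29 in Comp.4 (adjusted p = 0.198) and -0.28 in Comp.2 (adjusted p = 0.357).

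The cytosolic chaperonin, prefoldin and mitochondrial protease list had 17 of 18 genes measured and 0 called by limma, with 2 higher at an unadjusted p under 0.05 in each comparison of Comp.4 (8.64% of all genes against vehicle and 7.52% against Comp.2) and 0 in Comp.2 against vehicle (6.23%). In Comp.4 15 of 17 lay above vehicle, with a median of 0.07, beside 54.9% of all genes and their median of 0.02. Against Comp.2, 14 of 17 lay above, with a median of 0.09, beside 52.3% and 0.01. Comp.2 against vehicle had 8 of 17 above 0 and a median of -0.00, beside 51.3% and 0.00. PFDN4, a prefoldin subunit, stood 0.32 above vehicle in Comp.4 (interval 0.07 to 0.56, adjusted p = 0.214), at 6.63 and 6.63 in Comp.4 against 6.29 and 6.34 in vehicle. CCT5, a chaperonin subunit, and LONP1, the mitochondrial Lon protease, each stood 0.24 above Comp.2 in Comp.4 (adjusted p = 0.217 for CCT5 and 0.206 for LONP1). Of 18 ER chaperones, 17 were measured, 7 of them members, and limma called 0. At an unadjusted limma p under 0.05, 1 was higher in each comparison of Comp.4 (8.64% of all genes against vehicle and 7.52% against Comp.2). In Comp.4, 13 of 17 ER chaperones lay above vehicle, with a median of 0.05, beside 54.9% of all genes and 0.02. Against Comp.2, 12 of 17 lay above, with a median of 0.04, beside 52.3% and 0.01. Comp.2 against vehicle had 9 of 17 above 0 and a median of 0.02, beside 51.3% and 0.00. That either list differs from other genes was not tested.

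**Figure D4:**
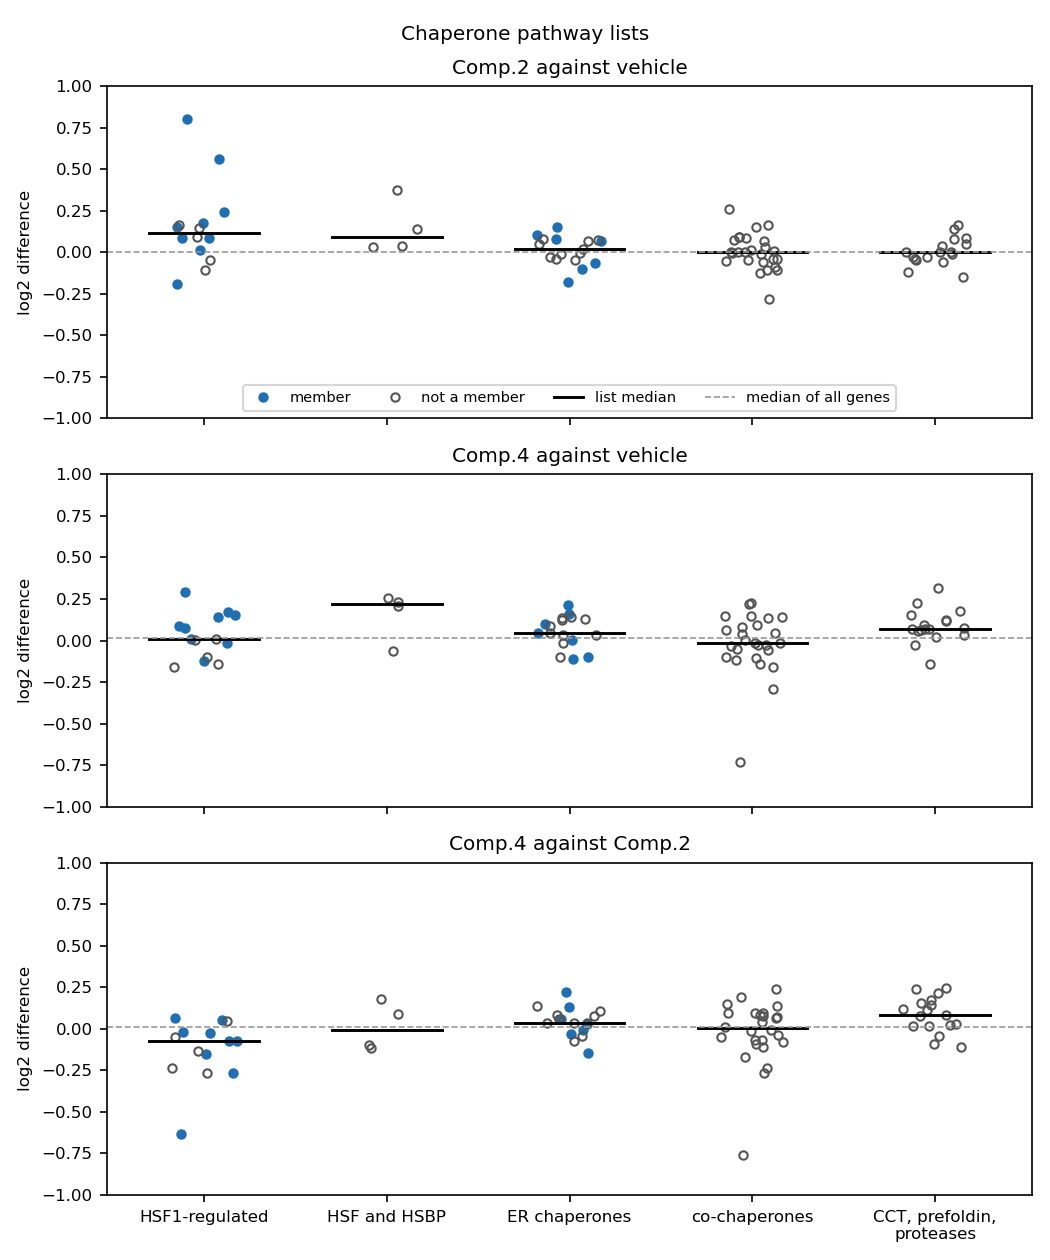
Log2 differences (vertical axes) of the genes on the 5 pathway lists in the 3 comparisons, with members as filled and other genes as open points, a black line at each list's median and a dashed line at the median of all genes. AHSA2P lies lowest, at -0.73 and -0.76 in the comparisons of Comp.4, and HSPA4L highest, at 0.80 in Comp.2 against vehicle.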

How the data were processed

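Gene expression was measured in A549 cells in 6 samples, 2 arrays in each of the Comp.4, Comp.2 and vehicle groups, which were taken from the sample titles. The deposited log2 values, 1 per probe set and array, were made by the authors with RMA, per the submitters' processing notes, which also name Transcriptome Analysis Console 2.0 and Expression Console 1.3.1 (Affymetrix) without the step each ran. Labelled cDNA came from 100 ng of RNA, per the labels' protocols. RMA equalises the arrays, so a change shared by most transcripts cannot be seen, and it understates fold changes of dim probe sets. Scanner files and detection calls were not used here, and with 2 arrays a group their number limits the precision. No value column was left without a sample.

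Of the 53617 probe sets, 23871 had 1 gene symbol, 1842 several and 27904 were unnamed here. Symbols were updated through Entrez numbers with RefSeq (22569 found, 90 changed). The brightest probe set stood for each of 632 genes with several. A further 22 probe sets that match the family names carry several symbols, and 9 are pseudogenes. HSPA1A, HSPA1B, HSPA8, HSPD1, HSPE1 and HSP90B1, among others, have no member probe set.

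A group-means model was fitted to all 22395 genes and 6 arrays with limma 3.58.1 in R 4.3.3 (3 residual and 3.71 prior degrees of freedom). P-values are two-sided and adjusted by the Benjamini-Hochberg method over all genes in a comparison, with a threshold of 0.05. The code was tested on simulated data. The text names members past the threshold, the largest non-overlapping differences above the median gene, the brightest and most different member of each class, and a set of well-known chaperones. List genes and members singled out for their order, element or class were named after their values were seen. The members and lists were chosen with earlier results of these data known. Alternatives were a variance trend, brighter genes, all probe sets, the mean of a gene's probe sets, protein-coding genes, the 2 groups alone, a replicate block and leaving out each array.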

Additional observations from a re-analysis of the deposited data

How the results depend on the processing

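The calls rest on 2 arrays a group. In Comp.2 against vehicle, 1 member was called higher and 0 lower. The count of higher members was 3 with the variance trend and 3 among brighter genes (HSPA4L, DNAJB4 and HSPA2 in both), 0 when only the 2 groups were fitted, and 0 to 0 over the fits without 1 array. The count of lower members was 1 (HSP90AB1) with the variance trend. In Comp.4 against vehicle, 2 members (HSPA2 and HSPA9) were lower with the variance trend, where 0 were in the fit reported. In Comp.4 against Comp.2, the 2 members called lower became 0 with the 2 groups alone and 0 to 0 over the fits without 1 array, in which the lone array of a group is assumed to vary like the others. Over all genes those fits called 9 higher and 5 lower in Comp.2 against vehicle without either Comp.4 array, 1 higher in Comp.4 against Comp.2 without Comp.2 replicate 1, and 0 otherwise (722 to 1999 in each direction at an unadjusted p under 0.05 in limma), so the loss of the member calls is little evidence on the members themselves. HSPA4L then differed by -0.70 to -0.57 (adjusted p = 0.116 to 0.189). Over all genes the calls, higher and lower, were 226 and 162 with the variance trend in Comp.2 against vehicle, 488 and 738 in Comp.4 against vehicle, and 484 and 591 in Comp.4 against Comp.2. Among brighter genes they were 154 and 79, 340 and 499, and 324 and 392 in the same order. With protein-coding genes alone they were 41 and 21, 0 and 0, and 14 and 33, and with the 2 groups alone 9 and 5, 0 and 0, and 0 and 0 (1388 and 1096, 1999 and 1767, and 1448 and 1400 at an unadjusted p under 0.05 in limma). The cause of these shifts was not tested.

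Same-numbered arrays did not deviate together from their group means (r = -0.04, 0.03 and 0.01 over genes for Comp.4 with Comp.2, Comp.2 with vehicle and Comp.4 with vehicle). No shared effect of the replicate number was thus seen, but these values cannot show whether same-numbered samples were handled together. With the replicate number as a block, 0 members were higher in Comp.2 against vehicle (HSPA4L adjusted p = 0.0703) and 0 were lower in Comp.4 against Comp.2 (HSPA4L 0.0849 and HSPA2 0.106). Over all genes the block left 9 higher and 6 lower in Comp.2 against vehicle, 0 and 4 in Comp.4 against vehicle, and 0 and 0 between the compounds.

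Differences near 0 changed sign without 1 array, all of them short of the threshold. The range was -0.0981 to 0.0622 for DNAJA1, -0.14 to 0.25 for DNAJB9, -0.0347 to 0.0284 for DNAJC7, -0.0601 to 0.0482 for HSPA5, -0.0625 to 0.0082 for HSPB1 and -0.11 to 0.13 for HSPB8 in Comp.4 against Comp.2. It was -0.0485 to 0.0606 for DNAJC3, -0.0329 to 0.0557 for HSP90AA1, -0.0369 to 0.0124 for HSPB1 and -0.003 to 0.18 for HSPH1 in Comp.4 against vehicle, and -0.0931 to 0.30 for DNAJB9 and -0.0205 to 0.0503 for HSPB1 in Comp.2 against vehicle. Under the other alternatives, each named log2 difference was recomputed once per alternative. In 539 of these recomputations it kept its direction and side of the threshold, in 7 it newly passed, in 6 it lost the call and in 0 it reversed. The 7 concern DNAJB4, HSPA2 and HSP90AB1 in Comp.2 and HSPA2 and HSPA9 in Comp.4 against vehicle, and the 6 concern the calls of HSPA4L and HSPA2.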

Other observations

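Probe sets that match the same family names but carry several gene symbols entered no test, because they cannot be assigned to 1 gene. There were 22, with 20 distinct sets of values, and their mean levels ran from 3.83 to 11.83. Between Comp.4 and Comp.2 their median difference was -0.20 (from -0.39 to 0.18), against 0.01 for all genes. Both Comp.4 arrays lay below both Comp.2 arrays in 14 and above them in 3, beside 21.6% and 23.7% of all genes. In Comp.4 against vehicle the median was -0.02, against 0.02 for all genes, with 1 probe set wholly above and 9 wholly below, beside 27.2% and 22.2%. In Comp.2 against vehicle the median was 0.14, against 0.00, with 14 wholly above and 1 wholly below, beside 22.7% and 21%. Several of these probe sets share target genes, so the counts are not independent, and no test was run on them.

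The 9 pseudogene probe sets left out of the family had medians of -0.01 in Comp.4 against vehicle, -0.10 in Comp.2 against vehicle and 0.12 in Comp.4 against Comp.2, with single differences from -0.52 to 0.50.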
